A study of Arabidopsis thaliana with 24 samples.

Results

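Shoots of Arabidopsis thaliana Col-0 seedlings after 3 h in salicylhydroxamic acid (SHAM) were compared with shoots after 2 h, 3 libraries each, so that 6 of the 24 libraries of the study were compared. The libraries of each group were taken by their labels, and the comparison was chosen with earlier results of these data known. Wild-type seedlings 7 days old were grown on medium with 1% sucrose in long days and pooled, 30 to 50 per library, before roots and shoots were separated. The other shoot groups, SHAM for 1 h and water for 1 h, were also in the fit. They took part in the filter on low counts, the scaling and the estimate of the spread, and their levels are given as description. Roots after 3 h and 2 h in SHAM, 3 libraries each, serve as the comparison organ. The sources differ on the solution: each SHAM sample is labelled as 1 mM, but the protocol lists SHAM at 0.1 mM and also at 1 mM together with 30% PEG (polyethylene glycol, which lowers the water potential), so neither the dose nor the presence of PEG is settled. An extra hour of exposure, an extra hour in solution and a later time of day cannot be told apart in this comparison, because no water shoots beyond 1 h were analysed here and no clock time is given.

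SHAM blocks the alternative oxidase, the mitochondrial enzyme that passes electrons from ubiquinol directly to oxygen, and it also acts on lipoxygenases and peroxidases. In green shoots the light-harvesting proteins bind chlorophyll and feed the photosystems, and their transcripts are among the most abundant of the leaf and respond to light, the circadian clock, sugars and signals from the chloroplast. The same organ makes nitrate-derived amino acids, starch and, in Brassicaceae, the defence compounds called glucosinolates. MARS-seq, the method used, counts the 3' ends of polyadenylated RNA.

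Library totals were 1348958 to 2860030 counts at 3 h and 1375851 to 3304144 counts at 2 h, with replicate 3 the shallowest in both groups. Levels are counts-per-million (CPM), relative to the library total. The labelled tissue matched its markers: genes for photosynthesis took 30.5 to 31.0% of the counts at 3 h and 35 to 36.3% at 2 h, against 0.193 to 4.48% in the root libraries. The 18 root markers in the table summed to 29.7 to 83 CPM at 3 h, against 46.6 to 66.4 CPM at 2 h, while the root libraries held 1328 to 4446 CPM. Of the 4 root, 5 guard and myrosin cell, 6 epidermis and 3 vascular markers tested, 0 were called, and their median log2 changes were 0.32, 0.56, 0.32 and 0.15. The 6 epidermis markers nevertheless summed to 2455 to 3495 CPM at 3 h, against 3622 to 4860 CPM at 2 h, a sum carried by the lipid transfer protein gene LTP1 (2080 CPM at 3 h and 3501 CPM at 2 h, not called). The 2 h libraries and SHAM 1 h replicate 3 stood apart from the other shoot libraries in organelle-encoded and ribosomal RNA. Organelle-encoded genes took 0.310 to 0.446% of counts at 2 h and 0.419% in that 1 h library, against 1.3 to 1.65% in the other 8 shoot libraries. Nuclear ribosomal RNA took 5.75 to 11.6 CPM in the same 4 libraries, against 38.7 to 85.3 CPM in the other 8. This contrast runs with the groups compared, and its part in the nuclear differences was not tested. A fit of nuclear genes alone kept 739 of the 741 calls given next. That fit only leaves out the organelle-encoded genes, a small share of the counts, and keeps the same libraries and the nuclear ribosomal RNA. It does not test the contrast between the libraries. In such whole shoots, fewer cells of a type and less RNA per cell cannot be told apart.

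Of 8511 nuclear genes tested, 741 were called (8.71%, edgeR, adjusted p under 0.05), 374 higher at 3 h (4.39%) and 367 lower (4.31%). Among these, 276 were at least 2-fold higher and 310 at least 2-fold lower. This fit did not use the replicate number. With the replicate number as a block in the fit (the replicate block below), 496 were called, among them 492 of the 741. The median log2 change over all nuclear genes tested was 0.05, and counts of called members of a list are to be read against these shares. The lists were chosen with earlier results of these data known, and 113 of their 513 tested genes were called. A list share above these shares is therefore a description and no independent support. Of the 741, 605 had a mean of at least 10 CPM and groups that did not overlap. The 12 highest and 12 lowest genes named were taken from these, so for them, LHCB2.3, LHCB2.1, BBX28, NEET, CYP83B1 and CYP71A12 included, the lack of overlap is part of the choice. The share of all 8511 genes without overlap is not given, so lack of overlap, here and below, is description and no added support. Several genes of light harvesting, chlorophyll synthesis and dehydrins were lower at 3 h, as were GBSS1 and APL1 of starch synthesis. Several of tryptophan and indole glucosinolate synthesis and of nitrate uptake and reduction were higher. Each chlorophyll synthesis call was lost in at least 1 of the fits that left out 1 library. The authors' deposited table called 523 genes for this step at an adjusted p under 0.05 and at least a 2-fold difference. Of these, 446 were among the 766 nuclear and organelle genes called here, which is 85.3% of their list and 58.2% of the one here, and all 446 had the same direction. The list here had no fold threshold, which lowers the second share. Both lists come from the same counts, so the shared direction is no independent support. The nuclear count was 281 without 3 h replicate 1, 303 without 3 h replicate 2, 382, 445 and 394 without 2 h replicates 1, 2 and 3, and 319 without both replicate 3 libraries. No called gene that was tested changed direction in these fits.

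**Figure D1:**
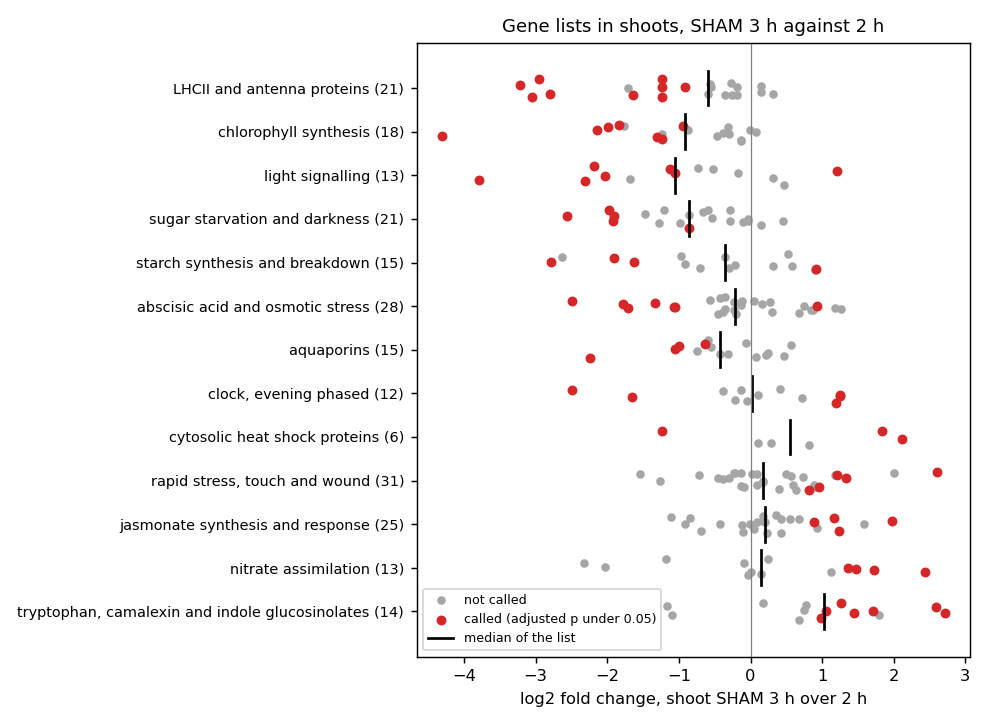
Log2 fold change of each tested member of 13 gene lists, shoot SHAM 3 h over 2 h, with the number tested in brackets. Red points were called, grey points were not, and the black bar is the list's median, which lies at -0.60 for the antenna list and 1.02 for the tryptophan and indole glucosinolate list.

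Among the antenna, photosystem and Calvin cycle genes, the largest falls were those of antenna genes. LHCB2.3 (AT3G27690), a trimeric light-harvesting protein of photosystem II, stood at 218, 152 and 129 CPM at 3 h, against 1587, 1723 and 1195 CPM at 2 h. LHCB2.1 (AT2G05100), a close relative, stood at 348, 258 and 142 CPM at 3 h, against 2059, 2344 and 1558 CPM at 2 h. LHCB1.1 (AT1G29920), from the most abundant family of the complex, stood at 2764, 2108 and 2911 CPM at 3 h, against 17211, 16855 and 22683 CPM at 2 h. The groups did not overlap for any of these genes, and each of the 3 h libraries was at least several-fold below each 2 h library. The log2 changes were -3.22 ± 0.26, adjusted p = 2.37e-05 for LHCB2.3, -3.05 ± 0.29, adjusted p = 8.01e-05 for LHCB2.1 and -2.95 ± 0.28, adjusted p = 8.01e-05 for LHCB1.1. Of 21 antenna genes tested, 9 were lower and 0 higher, with a median log2 change of -0.60. The other members called were LHCB2.2 (-2.80 ± 0.30, adjusted p = 0.000246), the monomeric photosystem II antenna proteins LHCB6 (-1.64 ± 0.18) and LHCB4.2 (-1.23 ± 0.21), LHCB3 (-1.24 ± 0.29, adjusted p = 0.02), the photosystem I protein LHCA4 (-1.24 ± 0.18) and the photoprotective protein PSBS (-0.91 ± 0.16). Reads of the near-identical LHCB1 and LHCB2 copies can be split between them by the counting, so the single genes are uncertain. The other LHCB1 genes were not called, with log2 changes of -0.55 for LHCB1.2, -0.27 for LHCB1.3, -0.19 for LHCB1.4 and 0.14 for LHCB1.5. Summed over its 5 genes, LHCB1 held 59604, 61802 and 69509 CPM at 3 h, against 79296, 82581 and 93783 CPM at 2 h, so that the mean at 3 h was 0.747 times that at 2 h. The 3 LHCB2 genes summed to 868, 613 and 388 CPM at 3 h, against 5110, 5803 and 3740 CPM at 2 h, or 0.127 times by the means. LHCB3 (without 3 h replicate 2 or 3 or 2 h replicate 1 or 3, highest adjusted p = 0.0632) lost its call when 1 library was left out. Summed over the 21 genes, the antenna list held 109205 to 114622 CPM at 3 h, against 152171 to 166703 CPM at 2 h. Mean levels of LHCB2.3 across the shoot groups were 156 CPM in water, 3019 CPM at 1 h, 1502 CPM at 2 h and 166 CPM at 3 h.

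Subunits of the photosystems and the electron transport chain moved less. Of 30 tested, 5 were lower and 1 higher, with a median log2 change of -0.29. FD2 (AT1G60950), a leaf ferredoxin that takes electrons from photosystem I, stood at 196, 333 and 282 CPM at 3 h, against 596, 867 and 682 CPM at 2 h, without overlap (-1.47 ± 0.28, adjusted p = 0.0063). PETE1, a plastocyanin, was also lower (-1.01 ± 0.19, adjusted p = 0.00627), as was ATPD, the delta subunit of the chloroplast ATP synthase (-0.83 ± 0.20, adjusted p = 0.0223), whereas the photosystem I subunit PSAG was higher (0.95 ± 0.26, adjusted p = 0.0387). PSBX (AT2G06520), a small photosystem II subunit with the lowest fold change of the list, stood at 47, 50 and 166 CPM at 3 h, against 162, 349.6 and 457 CPM at 2 h, and the groups overlapped (-1.97 ± 0.57, adjusted p = 0.0477). The photosystem I subunit PSAF was lower as well (-1.39 ± 0.39, adjusted p = 0.0415). Of 20 Calvin cycle genes, 2 were lower and 2 higher, with a median of -0.11. GAPA2 (AT1G12900), a subunit of the chloroplast glyceraldehyde-3-phosphate dehydrogenase, stood at 111, 109 and 140.1 CPM at 3 h, against 294, 346 and 528 CPM at 2 h (-1.79 ± 0.34, adjusted p = 0.00565). CP12-2 (AT3G62410), a small protein that holds that enzyme and phosphoribulokinase inactive in the dark, went the other way, with 1124, 1037 and 1390 CPM at 3 h, against 356, 347 and 470.3 CPM at 2 h (1.52 ± 0.29, adjusted p = 0.00601). Rubisco activase (RCA) was lower (-0.89 ± 0.21, adjusted p = 0.0179) and the Rubisco small subunit gene RBCS1B, which has near-identical copies, higher (1.05 ± 0.27, adjusted p = 0.0294). ATPD (without 3 h replicate 1 or 2 or 2 h replicate 1 or 2, highest adjusted p = 0.105) and PSAG (without 3 h replicate 1 or 2 or 2 h replicate 1, 2 or 3, highest adjusted p = 0.149) lost their calls when 1 library was left out. PSBX (without 3 h replicate 1 or 2 or 2 h replicate 2 or 3, highest adjusted p = 0.187) and PSAF (without 3 h replicate 1 or 2 or 2 h replicate 1, 2 or 3, highest adjusted p = 0.167) did so too. RCA (without 3 h replicate 1 or 2 or 2 h replicate 2, highest adjusted p = 0.0981) and RBCS1B (without 3 h replicate 1 or 2 or 2 h replicate 1 or 3, highest adjusted p = 0.111) did so too. PSBX (adjusted p = 0.0774) and PSAF (adjusted p = 0.0824) lost their calls with the replicate block.

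Chlorophyll synthesis ran in the same direction as its binding proteins: 7 of 18 genes tested were lower and 0 higher, with a median log2 change of -0.91. CRD1 (AT3G56940), a subunit of the cyclase that closes the fifth ring of the chlorophyll precursor, stood at 6.92, 11.5 and 14.8 CPM at 3 h, against 29.7, 48.5 and 58.1 CPM at 2 h (-2.14 ± 0.43, adjusted p = 0.00761). HEME2 (AT2G40490), a uroporphyrinogen decarboxylase, stood at 124, 133 and 159 CPM at 3 h, against 330.5, 281 and 321 CPM at 2 h (-1.24 ± 0.29, adjusted p = 0.0182). PORB (AT4G27440), which reduces protochlorophyllide in the light, stood at 169, 164 and 106 CPM at 3 h, against 297, 325 and 198 CPM at 2 h (-0.95 ± 0.23, adjusted p = 0.0235). None of these groups overlapped. PCB2 (AT5G18660), the divinyl reductase of the pathway, had 2 counts in all at 3 h and 41 at 2 h, a ratio of 0.05 with a 95% counting interval of 0.00586 to 0.193. HEMA1, the glutamyl-tRNA reductase at the entry of the pathway (-1.99 ± 0.57, adjusted p = 0.0435), HEMF1, a coproporphyrinogen oxidase (-1.3 ± 0.32, adjusted p = 0.0241), and GUN4, an activator of magnesium chelatase (-1.84 ± 0.46, adjusted p = 0.0264), completed the members called. CRD1 (without 3 h replicate 1, highest adjusted p = 0.0502) and PCB2 (without 3 h replicate 2 or 2 h replicate 3, highest adjusted p = 0.0836) lost their calls when 1 library was left out. HEME2 (without 3 h replicate 1 or 2 or 2 h replicate 1 or 3, highest adjusted p = 0.0938) and PORB (without 3 h replicate 1, 2 or 3 or 2 h replicate 1 or 2, highest adjusted p = 0.084) did so too. HEMA1 (without any 1 of the 6, highest adjusted p = 0.157) and HEMF1 (without 3 h replicate 1 or 2 or 2 h replicate 2 or 3, highest adjusted p = 0.113) did so too. GUN4 (without 3 h replicate 1 or 2 or 2 h replicate 2 or 3, highest adjusted p = 0.127) did so too. HEMA1 (adjusted p = 0.0561) lost its call with the replicate block.

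Several light signalling genes were lower. BBX28 (AT4G27310), a B-box protein that restrains the transcription factor HY5, stood at 6.55, 5.25 and 5.19 CPM at 3 h, against 80.8, 76.6 and 70.5 CPM at 2 h. The 3 h libraries lay close together and far below the 2 h libraries, with a log2 change of -3.79 ± 0.25, adjusted p = 3.19e-06, the smallest p-value of all nuclear genes in edgeR. With DESeq2 the adjusted p of LHCB2.3 (5.4e-33) was smaller than that of BBX28 (7.69e-29). ELIP2 (AT4G14690), an early light-induced protein that binds pigment under light stress, stood at 5.82, 5.94 and 8.15 CPM at 3 h, against 34.2, 36.3 and 22.5 CPM at 2 h (-2.31 ± 0.29, adjusted p = 0.000509). Its relative ELIP1 (AT3G22840) stood at 4.37, 2.8 and 5.93 CPM at 3 h, against 18.16, 18.7 and 12.4 CPM at 2 h (-2.03 ± 0.34, adjusted p = 0.00305). BBX25, another B-box protein, was lower (-2.19 ± 0.34, adjusted p = 0.00214), as were the phytochrome-interacting factors PIF5 (-1.06 ± 0.20, adjusted p = 0.00536) and PIF4 (-1.13 ± 0.33, adjusted p = 0.0453). HY5 itself, which promotes light-grown development, was higher, with 81.5, 79.4 and 137 CPM at 3 h, against 37.5, 35.5 and 50.1 CPM at 2 h (1.21 ± 0.31, adjusted p = 0.0279). Of 13 light signalling genes tested, 6 were lower and 1 higher, with a median log2 change of -1.06. HY5 (without 3 h replicate 3 or 2 h replicate 1 or 2, highest adjusted p = 0.0995) and PIF4 (without any 1 of the 6, highest adjusted p = 0.14) lost their calls when 1 library was left out. PIF4 (adjusted p = 0.0818) lost its call with the replicate block.

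**Figure D2:**
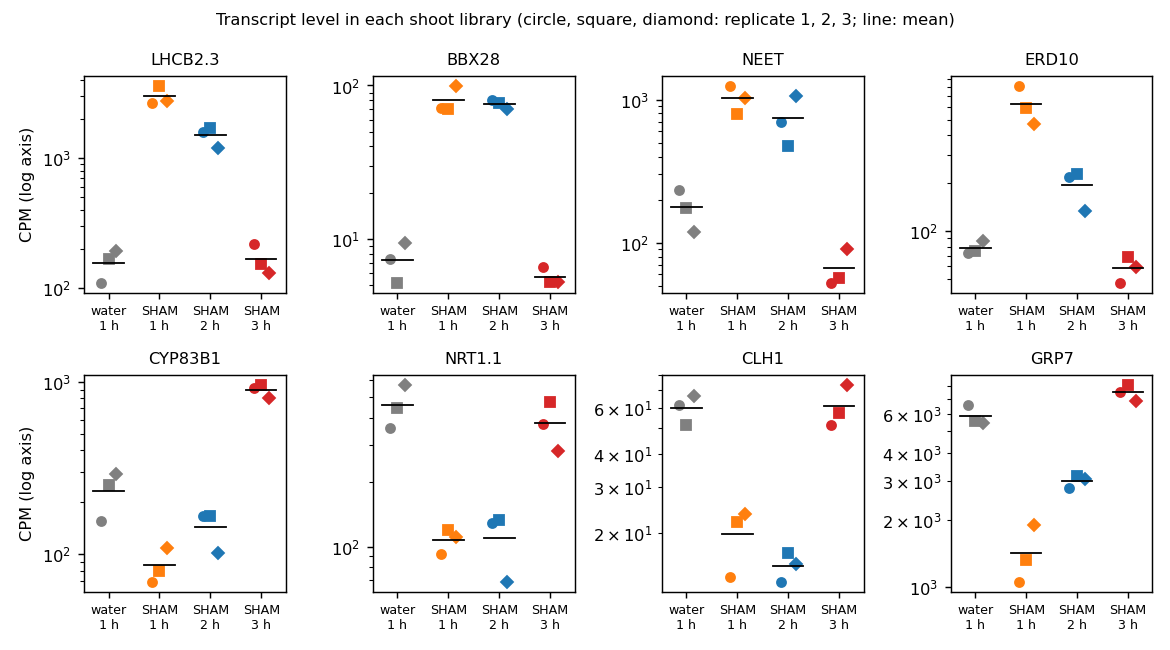
Transcript level (CPM, log axis) of 8 genes in each of the 12 shoot libraries, by treatment and time, with the mean of each group as a line and the replicates as a circle, a square and a diamond. LHCB2.3, BBX28, NEET and ERD10 are lower in every 3 h library than in any 2 h library, and CYP83B1, NRT1.1, CLH1 and GRP7 are higher.

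Clock-associated genes split by member. GRP7 (AT2G21660), an RNA-binding protein with a daily rhythm that peaks in the evening, stood at 7503, 8086 and 6802 CPM at 3 h, against 2777, 3155 and 3034 CPM at 2 h, without overlap (1.25 ± 0.21, adjusted p = 0.00295). ELF4 (AT2G40080), a subunit of the evening complex, stood at 191, 174 and 179 CPM at 3 h, against 78.4, 58.3 and 87.2 CPM at 2 h (1.2 ± 0.23, adjusted p = 0.00612), and BOA was also higher (1.25 ± 0.35, adjusted p = 0.0401). CDF3 (AT3G47500), a repressor of flowering that is degraded late in the day, stood at 7.28, 9.09 and 4.45 CPM at 3 h, against 40, 49.7 and 27.6 CPM at 2 h (-2.50 ± 0.28, adjusted p = 0.000297). The pseudo-response regulators PRR5 (-1.65 ± 0.39, adjusted p = 0.0184) and PRR7 (-2.14 ± 0.53, adjusted p = 0.0235) were lower too. Of the 12 genes listed as evening phased 3 were higher and 2, CDF3 and PRR5, lower. The median log2 change was 0.03, and it was -0.01 with median-ratio size factors and -0.02 with no filter on low counts. The daily peak of these transcripts was not measured here, and the place of CDF3 in the evening list is uncertain. Of 14 morning-phased genes only 3 passed the filter on low counts, and PRR7 was the one called. PRR5 (without 3 h replicate 1 or 2 h replicate 1, highest adjusted p = 0.0736) and PRR7 (without 3 h replicate 2 or 3 or 2 h replicate 2 or 3, highest adjusted p = 0.0935) lost their calls when 1 library was left out. BOA (without 3 h replicate 1, 2 or 3 or 2 h replicate 1 or 2, highest adjusted p = 0.142) did so too. PRR7 (adjusted p = 0.0555) lost its call with the replicate block.

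Several genes of carbon shortage and of starch were lower. Of 21 sugar starvation genes tested, 5 were lower and 0 higher, with a median log2 change of -0.86. Several of these degrade branched-chain amino acids. BCAT2 (AT1G10070), a mitochondrial aminotransferase, stood at 46.6, 58 and 48.2 CPM at 3 h, against 136, 141 and 260.2 CPM at 2 h (-1.92 ± 0.38, adjusted p = 0.00709). IVD (AT3G45300), isovaleryl-CoA dehydrogenase, stood at 20.8, 24.5 and 22.2 CPM at 3 h, against 48.7, 57.9 and 138 CPM at 2 h (-1.97 ± 0.40, adjusted p = 0.0085). DIN4, a subunit of the branched-chain keto acid dehydrogenase (-1.91 ± 0.45, adjusted p = 0.0188), the trehalose-phosphate synthase-like protein TPS11 (-2.57 ± 0.54, adjusted p = 0.0114) and the xylosidase BXL1 (-0.86 ± 0.24, adjusted p = 0.0401) were the others. ALDH6B2 (AT2G14170), methylmalonate semialdehyde dehydrogenase of valine breakdown, was among the 12 genes with the lowest fold changes, at 3.28, 4.54 and 5.93 CPM at 3 h, against 18.8, 32.6 and 66.9 CPM at 2 h (-3.23 ± 0.51, adjusted p = 0.00231). The summed level of the starvation list overlapped between the groups, at 10031 to 11406 CPM at 3 h, against 9242 to 11951 CPM at 2 h, and the most abundant member, DRM2, had a log2 change of 0.46 and was not called. GBSS1 (AT1G32900), the starch synthase that makes amylose, stood at 4.73, 2.45 and 2.22 CPM at 3 h, against 19.7, 21.2 and 24 CPM at 2 h (-2.78 ± 0.34, adjusted p = 0.00048). BAM9 (AT5G18670), a beta-amylase-like protein without catalytic activity, stood at 10.9, 16.8 and 13.3 CPM at 3 h, against 39.3, 42.4 and 39.2 CPM at 2 h (-1.63 ± 0.26, adjusted p = 0.00234). APL1, a large subunit of ADP-glucose pyrophosphorylase, was lower (-1.90 ± 0.46, adjusted p = 0.0219), and SEX1, the glucan water dikinase that starts starch breakdown, was higher (0.92 ± 0.25, adjusted p = 0.0376), so that 3 of 15 starch genes were lower and 1 higher (median -0.36). DIN4 (without 3 h replicate 1 or 2 or 2 h replicate 2 or 3, highest adjusted p = 0.086) and TPS11 (without 3 h replicate 2, highest adjusted p = 0.0636) lost their calls when 1 library was left out. BXL1 (without any 1 of the 6, highest adjusted p = 0.127) and APL1 (without 3 h replicate 1 or 2 or 2 h replicate 3, highest adjusted p = 0.1) did so too. SEX1 (without 3 h replicate 1 or 2 or 2 h replicate 1, 2 or 3, highest adjusted p = 0.147) did so too. BXL1 (adjusted p = 0.066) and SEX1 (adjusted p = 0.0638) lost their calls with the replicate block.

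Several dehydrin and other osmotic stress genes were lower, with the abscisic acid list giving 6 lower and 1 higher of 28 tested and a median log2 change of -0.21. ERD10 (AT1G20450), an acidic dehydrin, stood at 47.3, 68.5 and 59.3 CPM at 3 h, against 219, 229 and 134 CPM at 2 h. LTI30 (AT3G50970), a basic dehydrin, stood at 73.9, 87.4 and 68.9 CPM at 3 h, against 208, 195 and 150.5 CPM at 2 h. The dehydrin COR47 (AT1G20440) stood at 588, 592 and 642 CPM at 3 h, against 1231, 1420 and 1013 CPM at 2 h. None of these groups overlapped, and the log2 changes were -1.78 ± 0.25, adjusted p = 0.00109 for ERD10, -1.33 ± 0.19, adjusted p = 0.00117 for LTI30 and -1.06 ± 0.18, adjusted p = 0.00341 for COR47. HB12 (AT3G61890), a homeodomain factor induced by abscisic acid, stood at 4.73, 3.85 and 5.19 CPM at 3 h, against 17.55, 15.9 and 39.2 CPM at 2 h (-2.49 ± 0.48, adjusted p = 0.00606). RD29A (-1.71 ± 0.36, adjusted p = 0.0117) and KIN1 (-1.07 ± 0.23, adjusted p = 0.0117), which has a close copy in KIN2, were lower as well, and ERD1, a regulatory subunit of a chloroplast protease, was higher (0.93 ± 0.23, adjusted p = 0.0259). Aquaporins, the water channels, had 4 lower and 0 higher of 15 (median -0.42). TIP2;1 (AT3G16240), of the vacuolar membrane, stood at 1582, 1418 and 874 CPM at 3 h, against 2551, 2511 and 2293 CPM at 2 h (-1.0 ± 0.22, adjusted p = 0.013). PIP2;1 (AT3G53420), of the plasma membrane, stood at 127, 231 and 125 CPM at 3 h, against 338, 368 and 256 CPM at 2 h (-1.06 ± 0.21, adjusted p = 0.008). PIP2;7 (-2.24 ± 0.62, adjusted p = 0.039) and PIP1;4 (-0.64 ± 0.19, adjusted p = 0.0473) were the other 2. RD29A (without 3 h replicate 1 or 2 h replicate 2, highest adjusted p = 0.0627) and KIN1 (without 3 h replicate 1 or 2, highest adjusted p = 0.0684) lost their calls when 1 library was left out. ERD1 (without 3 h replicate 1, 2 or 3 or 2 h replicate 1 or 2, highest adjusted p = 0.116) and PIP2;1 (without 3 h replicate 1, highest adjusted p = 0.0537) did so too. PIP2;7 (without 3 h replicate 1 or 2 or 2 h replicate 1, 2 or 3, highest adjusted p = 0.16) and PIP1;4 (without any 1 of the 6, highest adjusted p = 0.188) did so too. PIP2;7 (adjusted p = 0.0596) and PIP1;4 (adjusted p = 0.0693) lost their calls with the replicate block.

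Among the iron genes, NEET (AT5G51720), an iron-sulfur cluster protein of chloroplasts and mitochondria, stood at 52.4, 56.3 and 90.4 CPM at 3 h, against 698, 470.2 and 1058 CPM at 2 h. Every 3 h library was below every 2 h library, with a log2 change of -3.60 ± 0.42, adjusted p = 0.000353. YSL1 (AT4G24120), a transporter of iron bound to nicotianamine, stood at 21.8, 30.1 and 27.4 CPM at 3 h, against 7.57, 10.2 and 7.27 CPM at 2 h and went the other way (1.60 ± 0.29, adjusted p = 0.00502). Of 7 genes of iron storage and sufficiency these were the only ones called, and of 13 iron-deficiency genes only 4 passed the filter, with ORG1 lower (-2.50 ± 0.72, adjusted p = 0.0437). ORG1 had fewer than 7 CPM in every library of both groups, and its call ended without any 1 of the 6 libraries (highest adjusted p = 0.195) and with the replicate block (adjusted p = 0.0895).

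Synthesis of tryptophan, camalexin and indole glucosinolates had the highest list median, 1.02 on the log2 scale, with 7 of 14 genes tested higher and 0 lower. CYP79B2 (AT4G39950), which turns tryptophan into indole-3-acetaldoxime, stood at 71.3, 57.7 and 54.9 CPM at 3 h, against 21.2, 31.4 and 12.4 CPM at 2 h. CYP83B1 (AT4G31500), which commits that oxime to glucosinolates, stood at 923, 960.1 and 808 CPM at 3 h, against 166, 166 and 101 CPM at 2 h. SUR1 (AT2G20610), the carbon-sulfur lyase after it, stood at 72.8, 87.8 and 48.9 CPM at 3 h, against 25.4, 20.8 and 14.5 CPM at 2 h. CYP71A12 (AT2G30750), which takes the oxime toward camalexin and related indoles, stood at 61.5, 56.3 and 32.6 CPM at 3 h, against 9.99, 6.11 and 5.09 CPM at 2 h. None of these 4 genes overlapped between the groups, and the log2 changes were 1.45 ± 0.27, adjusted p = 0.00499 for CYP79B2, 2.59 ± 0.24, adjusted p = 8.01e-05 for CYP83B1, 1.71 ± 0.31, adjusted p = 0.00452 for SUR1 and 2.72 ± 0.40, adjusted p = 0.00153 for CYP71A12. In tryptophan synthesis the called genes were ASA1, an anthranilate synthase subunit (1.06 ± 0.26, adjusted p = 0.0235), and the tryptophan synthase subunits TSA1 (1.27 ± 0.25, adjusted p = 0.00684) and TSB1 (0.99 ± 0.24, adjusted p = 0.0226), the last of which has a close copy. The list summed to 1669 to 1953 CPM at 3 h, against 452 to 650.1 CPM at 2 h. ADT6 (AT1G08250), an arogenate dehydratase of phenylalanine synthesis and among the 12 genes with the highest fold changes, stood at 57.5, 58.7 and 58.6 CPM at 3 h, against 8.47, 13.8 and 5.82 CPM at 2 h (2.57 ± 0.33, adjusted p = 0.000593). Aliphatic glucosinolate genes had 1 of 11 lower, GSTU20 (-1.88 ± 0.29, adjusted p = 0.00193), and 1 higher, the activator MYB28 (1.13 ± 0.30, adjusted p = 0.0341), whose call ended with the replicate block (adjusted p = 0.058). ASA1 (without any 1 of the 6, highest adjusted p = 0.1) and TSB1 (without 3 h replicate 1 or 2 or 2 h replicate 1, 2 or 3, highest adjusted p = 0.0976) lost their calls when 1 library was left out. MYB28 (without any 1 of the 6, highest adjusted p = 0.151) did so too.

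Several nitrate uptake and reduction genes were higher, with 4 of 13 tested called higher and 0 lower in the main fit and a median log2 change of 0.14. The list also held the BTB and TAZ domain genes BT1 (-2.33 ± 0.71, adjusted p = 0.0572) and BT2 (-2.03 ± 0.65, adjusted p = 0.0684), not called in the main edgeR fit. Both were called lower with DESeq2 (adjusted p = 0.0138 and 0.0188), with no filter on low counts (0.0132 and 0.0173), with the 6 libraries alone (0.0453 and 0.0209), and BT1 also without 3 h replicate 3 (0.0427) or with SHAM 1 h replicate 3 out of the fit (0.0421). NRT1.1 (AT1G12110), a nitrate transporter and sensor, stood at 376, 475 and 280.2 CPM at 3 h, against 129, 133 and 68.3 CPM at 2 h. The nitrate reductase NIA1 (AT1G77760) stood at 487, 511 and 382 CPM at 3 h, against 93.8, 130 and 26.2 CPM at 2 h. Its partner NIA2 (AT1G37130) stood at 828, 646 and 661 CPM at 3 h, against 301, 345 and 113 CPM at 2 h. UPM1 (AT5G40850), which makes the siroheme cofactor of nitrite reductase, stood at 109.9, 119 and 108 CPM at 3 h, against 51.8, 45.6 and 28.4 CPM at 2 h. The 3 h libraries lay above the 2 h libraries for each, and the log2 changes were 1.72 ± 0.24, adjusted p = 0.0011 for NRT1.1, 2.44 ± 0.38, adjusted p = 0.00198 for NIA1, 1.47 ± 0.33, adjusted p = 0.0151 for NIA2 and 1.36 ± 0.26, adjusted p = 0.00599 for UPM1. The nitrite reductase gene NIR1 was not called (-0.04 ± 0.23, adjusted p = 0.933). Of the 13 tested, 7 had a positive and 6 a negative log2 change. NIA2 (without 3 h replicate 1, highest adjusted p = 0.0694) lost its call when 1 library was left out.

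Jasmonate and rapid stress genes had only higher members called, but most members of both lists were not called. Of the 25 jasmonate genes tested, 17 had a positive and 8 a negative log2 change, and of the 31 rapid stress genes 20 and 11. CLH1 (AT1G19670), a chlorophyllase induced by jasmonate, stood at 51.3, 57.3 and 73.4 CPM at 3 h, against 13, 16.7 and 15.3 CPM at 2 h (1.97 ± 0.26, adjusted p = 0.000651). ORA59 (AT1G06160), an ethylene and jasmonate response factor, stood at 39.3, 33.6 and 36.3 CPM at 3 h, against 16, 12.6 and 18.17 CPM at 2 h (1.16 ± 0.27, adjusted p = 0.0182). MYC2, the main jasmonate transcription factor (1.24 ± 0.32, adjusted p = 0.0303), and AOC2, an allene oxide cyclase of jasmonate synthesis (0.89 ± 0.25, adjusted p = 0.0392), made up the 4 of 25 called, and the list's median was 0.20. ERF4 (AT3G15210), a repressor of the ethylene response factor family, stood at 216, 251 and 247 CPM at 3 h, against 99.9, 108 and 64 CPM at 2 h (1.34 ± 0.20, adjusted p = 0.00178). The transcription factor RRTF1 (2.60 ± 0.70, adjusted p = 0.0351) and the deadenylase CAF1B (1.21 ± 0.32, adjusted p = 0.0319) were also higher. So were the zinc finger proteins ZAT10 (0.96 ± 0.27, adjusted p = 0.0398) and SZF1 (0.81 ± 0.22, adjusted p = 0.0382), which made 5 of 31 in all with a median of 0.18. ORA59 (without 3 h replicate 1 or 2 h replicate 1 or 2, highest adjusted p = 0.0784) and MYC2 (without 3 h replicate 1, 2 or 3 or 2 h replicate 2 or 3, highest adjusted p = 0.114) lost their calls when 1 library was left out. AOC2 (without any 1 of the 6, highest adjusted p = 0.138) and RRTF1 (without any 1 of the 6, highest adjusted p = 0.117) did so too. CAF1B (without 3 h replicate 1, 2 or 3 or 2 h replicate 2 or 3, highest adjusted p = 0.105) and ZAT10 (without 3 h replicate 1, 2 or 3 or 2 h replicate 2 or 3, highest adjusted p = 0.126) did so too. SZF1 (without any 1 of the 6, highest adjusted p = 0.147) did so too. MYC2 (adjusted p = 0.0642), AOC2 (adjusted p = 0.0534), RRTF1 (adjusted p = 0.0589) and SZF1 (adjusted p = 0.0739) lost their calls with the replicate block.

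Chaperone genes were mostly higher among the members called. MBF1C (AT3G24500), a coactivator of heat responses, stood at 49.9, 29.7 and 36.3 CPM at 3 h, against 9.69, 9.78 and 5.82 CPM at 2 h (2.12 ± 0.34, adjusted p = 0.00238). The cytosolic chaperone HSP70 (AT3G12580) stood at 31.3, 32.2 and 26.7 CPM at 3 h, against 8.47, 10.2 and 5.09 CPM at 2 h (1.84 ± 0.30, adjusted p = 0.00244). Its relative Hsp70-2 (AT5G02490) stood at 47.3, 43 and 49.7 CPM at 3 h, against 7.87, 8.96 and 7.27 CPM at 2 h (2.48 ± 0.32, adjusted p = 0.000653). The small chaperone HSP18.2 was lower (-1.23 ± 0.36, adjusted p = 0.0453), so that 2 of 6 heat shock genes tested were higher and 1 lower (median 0.55). In the endoplasmic reticulum the near-identical chaperone genes BIP2 (0.82 ± 0.22, adjusted p = 0.0324) and BIP1 (0.86 ± 0.24, adjusted p = 0.042) were higher, with 2 of 11 called (median -0.04). Of 21 genes that detoxify foreign or reactive compounds, 2 were higher and 0 lower, the glucosyltransferase UGT73C5 (0.91 ± 0.21, adjusted p = 0.0179) and the glutathione transferase GSTF2 (0.98 ± 0.25, adjusted p = 0.0303), with a median of 0.52. Of 16 salicylate genes, 2 were lower and 0 higher (median 0.00). WRKY53 (AT4G23810), a transcription factor, stood at 27.3, 19.6 and 21.5 CPM at 3 h, against 116, 66 and 50.9 CPM at 2 h (-1.82 ± 0.29, adjusted p = 0.00238). DMR6 (AT5G24530), which hydroxylates salicylate, stood at 14.2, 17.5 and 13.3 CPM at 3 h, against 42.7, 59.1 and 61 CPM at 2 h (-1.92 ± 0.32, adjusted p = 0.003). HSP18.2 (without any 1 of the 6, highest adjusted p = 0.167) and BIP2 (without any 1 of the 6, highest adjusted p = 0.102) lost their calls when 1 library was left out. BIP1 (without any 1 of the 6, highest adjusted p = 0.138) and UGT73C5 (without 3 h replicate 3 or 2 h replicate 1 or 2, highest adjusted p = 0.0651) did so too. GSTF2 (without 3 h replicate 2 or 3 or 2 h replicate 1 or 2, highest adjusted p = 0.119) did so too. HSP18.2 (adjusted p = 0.0702) and BIP1 (adjusted p = 0.0539) lost their calls with the replicate block.

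AOX1A, LOX1 and LOX2, which encode enzymes that SHAM acts on, were not called. AOX1A (AT3G22370), the main stress-induced alternative oxidase, stood at 42.2, 47.2 and 65.2 CPM at 3 h, against 84.7, 78.6 and 32.7 CPM at 2 h, and the groups overlapped (-0.39 ± 0.32, adjusted p = 0.493). LOX1 (AT1G55020), a 9-lipoxygenase, stood at 99.4, 72 and 68.2 CPM at 3 h, against 41.2, 56.6 and 24.7 CPM at 2 h, where the groups did not overlap but the threshold was missed (0.93 ± 0.30, adjusted p = 0.0685). LOX2 (AT3G45140), the chloroplast 13-lipoxygenase, stood at 45.1, 45.8 and 31.1 CPM at 3 h, against 62, 98.6 and 32.7 CPM at 2 h (-0.69 ± 0.43, adjusted p = 0.345). With SHAM 1 h replicate 3 out of the fit, LOX1 passed the threshold (adjusted p = 0.0429). Of 7 mitochondrial dysfunction and alternative respiration genes tested, 2 were higher and 1 lower. NDA1 (AT1G07180), an internal alternative NADH dehydrogenase, stood at 10.2, 7.69 and 8.9 CPM at 3 h, against 48.1, 46 and 49.4 CPM at 2 h (-2.49 ± 0.36, adjusted p = 0.00153). The dicarboxylate carrier DIC2 (AT4G24570) stood at 150.3, 155 and 144 CPM at 3 h, against 75.4, 51.7 and 23.3 CPM at 2 h (1.52 ± 0.34, adjusted p = 0.0152). A second one, DIC1 (AT2G22500), stood at 105, 122 and 136 CPM at 3 h, against 70.8, 48.5 and 37.8 CPM at 2 h (1.14 ± 0.27, adjusted p = 0.0176). Of 10 core hypoxia genes only LBD41 was called, lower (-1.31 ± 0.29, adjusted p = 0.0148). DIC2 (without 3 h replicate 1 or 2 h replicate 2, highest adjusted p = 0.0541) and DIC1 (without 2 h replicate 2 or 3, highest adjusted p = 0.0665) lost their calls when 1 library was left out. LBD41 (without 3 h replicate 1 or 2 h replicate 1, highest adjusted p = 0.0831) did so too.

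Outside the lists, the lowest nuclear fold change was that of AT2G29670, annotated as a tetratricopeptide repeat protein, at 0, 2.8 and 2.22 CPM at 3 h, against 25.4, 39.9 and 81.4 CPM at 2 h (-5.00 ± 0.68, adjusted p = 0.000918). GAT1_2.1 (AT1G15040), a glutamine amidotransferase-like protein, stood at 2.55, 3.15 and 2.96 CPM at 3 h, against 27.2, 33 and 34.2 CPM at 2 h (-3.50 ± 0.38, adjusted p = 0.000246). The sugar alcohol transporter PMT6 stood at 3.28, 4.2 and 14.1 CPM at 3 h, against 28.1, 56.6 and 106 CPM at 2 h (-3.38 ± 0.66, adjusted p = 0.00672). AT4G15670, a thioredoxin superfamily protein, stood at 4.37, 0.699 and 2.22 CPM at 3 h, against 22.1, 21.6 and 22.5 CPM at 2 h (-3.21 ± 0.47, adjusted p = 0.00156). Of the genes with the highest fold changes, JMJD5 (AT3G20810), a jumonji-domain protein linked to the clock, stood at 26.2, 52.1 and 20.8 CPM at 3 h, against 4.54, 4.89 and 0 CPM at 2 h (3.17 ± 0.49, adjusted p = 0.00198). AT5G42530, uncharacterized, stood at 60, 44.4 and 92.7 CPM at 3 h, against 2.12, 2.44 and 9.45 CPM at 2 h (3.94 ± 0.70, adjusted p = 0.00426). AT3G28270, a putative transmembrane protein, stood at 30.9, 35.3 and 26.7 CPM at 3 h, against 3.93, 3.67 and 2.18 CPM at 2 h (3.12 ± 0.45, adjusted p = 0.0014). Some of the remaining extremes followed the replicate number as well as the time. The nucleoside diphosphate kinase NDPK1 stood at 6.19, 6.99 and 27.4 CPM at 3 h, against 41.5, 84.3 and 251 CPM at 2 h (-3.46 ± 0.87, adjusted p = 0.0257). AT2G15960, a stress-induced protein, stood at 67, 70.6 and 315 CPM at 3 h, against 1.51, 3.26 and 13.8 CPM at 2 h (4.80 ± 1.38, adjusted p = 0.0442). Replicate 3 was the highest of both groups for each. The ribosomal protein genes RPL16B (-2.97 ± 0.82, adjusted p = 0.0392) and AT4G14320 (-4.04 ± 1.04, adjusted p = 0.0292) showed the same order of replicates, and AT2G25510 (3.11 ± 0.84, adjusted p = 0.0359) and AT5G58375 (2.74 ± 0.73, adjusted p = 0.034) were highest in 3 h replicate 3. NDPK1 (without 3 h replicate 1 or 2 or 2 h replicate 3, highest adjusted p = 0.122) and AT2G15960 (without any 1 of the 6, highest adjusted p = 0.146) lost their calls when 1 library was left out. RPL16B (without 3 h replicate 1 or 2 or 2 h replicate 2 or 3, highest adjusted p = 0.153) and AT4G14320 (without 3 h replicate 1 or 2 or 2 h replicate 3, highest adjusted p = 0.139) did so too. AT2G25510 (without 3 h replicate 3 or 2 h replicate 1, 2 or 3, highest adjusted p = 0.122) and AT5G58375 (without 3 h replicate 1 or 3 or 2 h replicate 1, 2 or 3, highest adjusted p = 0.119) did so too. AT2G15960 (adjusted p = 0.0855), RPL16B (adjusted p = 0.0653), AT2G25510 (adjusted p = 0.079) and AT5G58375 (adjusted p = 0.0574) lost their calls with the replicate block.

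Organelle-encoded genes were higher at 3 h as a class. They took 1.36% of counts (95% Wilson interval 1.35 to 1.37%), 1.31% (1.3 to 1.33%) and 1.39% (1.37 to 1.41%) in the 3 libraries at 3 h, against 0.310% (0.304 to 0.316%), 0.446% (0.438 to 0.454%) and 0.355% (0.346 to 0.365%) at 2 h. The groups did not overlap, and the means differed by 0.985 percentage points (exact two-sided permutation test, p = 0.10, the smallest that 3 against 3 allows). Water shoots held 1.3 to 1.61%, and the SHAM 1 h shoots 1.65%, 1.46% and 0.419%, so that 1 library at 1 h stood with the 2 h libraries. Of 101 organelle-encoded genes with counts, 59 were tested, and 25 of these were called (42.4%), all higher, 21 of 50 from the chloroplast and 4 of 9 from mitochondria. The median log2 change of the 59 was 2.47, and 58 were positive.

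**Figure D3:**
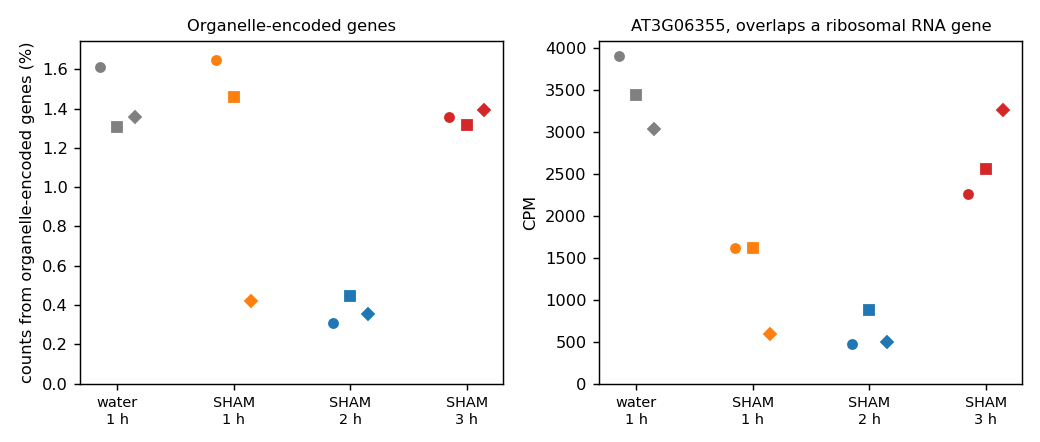
Left, share of all counts from organelle-encoded genes in each shoot library with 95% Wilson intervals, most of them smaller than the symbols; right, CPM of AT3G06355. Circle, square and diamond are replicates 1, 2 and 3, and in both panels the 2 h libraries and 1 of the SHAM 1 h libraries are the lowest.

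The most abundant organelle transcript, ATMG00020 of mitochondria, stood at 7744, 5880 and 7269 CPM at 3 h, against 1850, 2367 and 1613 CPM at 2 h (1.80 ± 0.34, adjusted p = 0.00557). It carried most of the counts from mitochondria. These took 0.8155, 0.6266 and 0.7691% of all counts at 3 h, against 0.1978, 0.2489 and 0.1731% at 2 h. Chloroplast genes took 0.5432, 0.6872 and 0.6251% at 3 h, against 0.1124, 0.1971 and 0.1823% at 2 h. ATCG00650 of the chloroplast stood at 647, 714 and 629 CPM at 3 h, against 155, 238 and 204 CPM at 2 h (1.67 ± 0.45, adjusted p = 0.0365), a call that ended without any 1 of the 6 libraries (highest adjusted p = 0.119) and with the replicate block (adjusted p = 0.0561). ATCG00470 stood at 519.7, 410.5 and 901 CPM at 3 h, against 213, 255 and 352 CPM at 2 h and was not called (1.09 ± 0.63, adjusted p = 0.304). ATCG00740, also not called, stood at 325, 549 and 301 CPM at 3 h, against 215, 349 and 123 CPM at 2 h (0.74 ± 0.33, adjusted p = 0.181). ATCG00260 stood at 4.37, 2.45 and 1485 CPM at 3 h, against 0.303, 0 and 409 CPM at 2 h and showed replicate 3 far above the rest in both groups (1.73 ± 2.3, adjusted p = 0.691). The reference used carries no names for these identifiers. The count of organelle-encoded genes called was 9 and 16 without 2 h replicate 1 and 3, 13 without 3 h replicate 1 and 13 without 3 h replicate 2, and 39 with SHAM 1 h replicate 3 out of the fit.

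Of 3 nuclear ribosomal RNA genes tested, 2 were higher at 3 h, and AT2G01020 was not called (1.33 ± 0.69, adjusted p = 0.254). The ribosomal RNA gene AT3G41768 stood at 34.2, 26.9 and 21.5 CPM at 3 h, against 2.72, 4.48 and 3.63 CPM at 2 h (2.90 ± 0.56, adjusted p = 0.0063). Another, AT2G01010, stood at 12.7, 24.1 and 20.8 CPM at 3 h, against 1.21, 2.85 and 4.36 CPM at 2 h (2.84 ± 0.63, adjusted p = 0.0141). AT3G06355, annotated as a long non-coding RNA that overlaps the ribosomal RNA gene AT3G41979, stood at 2255, 2551 and 3257 CPM at 3 h, against 477, 883 and 500.1 CPM at 2 h (2.08 ± 0.37, adjusted p = 0.00404). Its level was 592 CPM in SHAM 1 h replicate 3 and 1614 and 1618 CPM in the other 1 h libraries, and 3036 to 3904 CPM in water. AT2G01010 (without 3 h replicate 2 or 2 h replicate 1 or 2, highest adjusted p = 0.0702) lost its call when 1 library was left out. Copies of these genes share sequence, so their counts are uncertain as single genes, and the part that the capture of RNA without a poly(A) tail has in the organelle and ribosomal differences was not tested.

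The same step in roots gave no call. Of 10642 genes tested between root SHAM 3 h and 2 h, edgeR called 0 (0%), DESeq2 called 0, and 176 had an unadjusted p under 0.05 in edgeR. The antenna list, which is expressed at a low level in roots, had a median log2 change of -0.46 there. A fit of all 24 libraries then tested whether the step differed between organs, and called 24 of 11704 genes (0.205%), 15 with a more positive and 9 with a more negative step in shoots. All 24 were also called in the shoot comparison, with which this test shares its shoot libraries.

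The lowest of these differences was that of AT2G29670, at -5.28 ± 1.07, adjusted p = 0.0382, with root levels of 2.93, 1.81 and 2.29 CPM at 3 h, against 2.11, 3.54 and 0.458 CPM at 2 h. AT1G21525 differed by -3.49 ± 0.57, adjusted p = 0.0173, with root levels of 8.06, 13.9 and 14.1 CPM at 3 h, against 7.03, 2.83 and 7.79 CPM at 2 h. BBX28 differed by -3.0 ± 0.63, adjusted p = 0.0461, with root levels of 18.3, 4.83 and 9.18 CPM at 3 h, against 21.1, 26.9 and 7.79 CPM at 2 h. ELIP2 differed by -2.71 ± 0.40, adjusted p = 0.00615, with root levels of 238, 219 and 276 CPM at 3 h, against 152, 157 and 251 CPM at 2 h. PI4K GAMMA 4, annotated as a phosphoinositide 4-kinase, differed by -2.74 ± 0.57, adjusted p = 0.0456. Toward higher steps in shoots, JMJD5 differed by 3.36 ± 0.63, adjusted p = 0.0312, with root levels of 7.33, 9.05 and 6.6 CPM at 3 h, against 8.43, 9.91 and 7.79 CPM at 2 h. CYP83B1 differed by 3.29 ± 0.57, adjusted p = 0.0233, with root levels of 289, 91.1 and 156 CPM at 3 h, against 394, 377 and 112 CPM at 2 h. The mitochondrial ATMG00660 differed by 2.87 ± 0.61, adjusted p = 0.0491, AT2G24580, an FAD-dependent oxidoreductase, by 2.73 ± 0.50, adjusted p = 0.0312, and AT1G07400, a small chaperone, by 2.55 ± 0.54, adjusted p = 0.0491. The other genes called included CDF3, IAA17 and ELIP1, with a more negative step in shoots, and ERF4, the flowering factor NF-YB2, the arogenate dehydratase PD1 and the adenylylsulfate kinase AKN2, which supplies sulfate for glucosinolates, with a more positive one. The calls depended on single libraries. A total of 0 genes were called without shoot 3 h replicate 1, without shoot 3 h replicate 2 or without shoot 2 h replicate 1. There were 3 without shoot 2 h replicate 3, 4 without shoot 2 h replicate 2, and 5 without shoot 3 h replicate 3. There was 1 without root 2 h replicate 2, and 1 without root 3 h replicate 3, and there were 2 without root 2 h replicate 1, 14 without root 3 h replicate 2 and 15 without root 3 h replicate 1. DESeq2 called 109. The replicate block gives same-numbered shoot and root libraries 1 shared effect. Their correlations across genes ran from -0.112 to -0.03 at 2 h and from -0.374 to 0.06 at 3 h. The numbers thus did not pair the organs, and the block is a weak check here. Under it 14 stayed called, and 10 of the calls between organs ended. They were AT2G29670 (adjusted p = 0.0715), BBX28 (adjusted p = 0.0766), PI4K GAMMA 4 (adjusted p = 0.0509), CDF3 (adjusted p = 0.0558) and ATMG00660 (adjusted p = 0.0558), and AT1G07400 (adjusted p = 0.0782), AKN2 (adjusted p = 0.0558), AT1G12230 (adjusted p = 0.0766), UNE1 (adjusted p = 0.0758) and HCF243 (adjusted p = 0.0655).

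**Figure D4:**
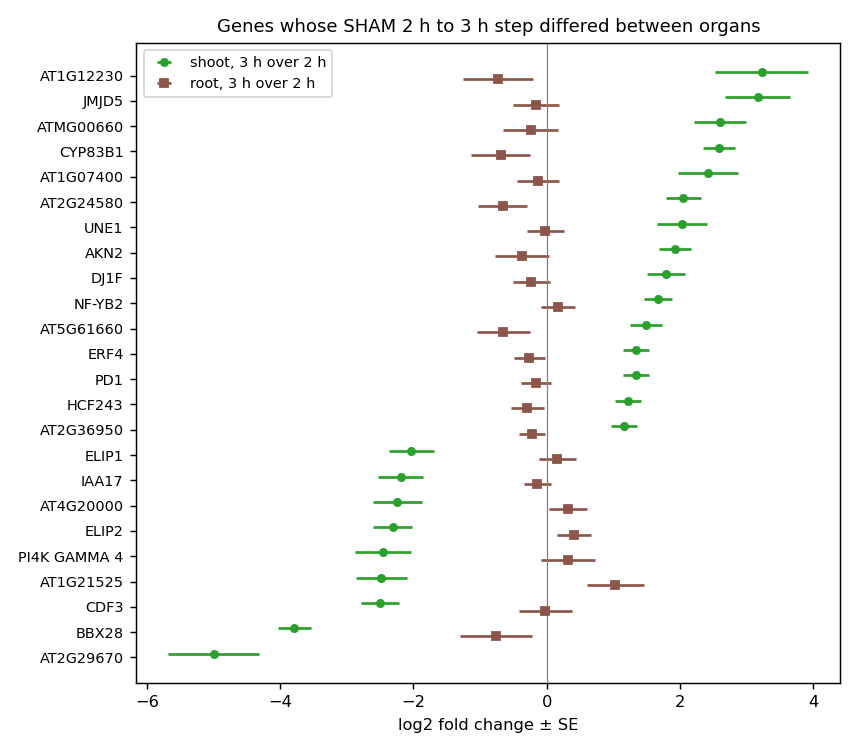
Log2 fold change ± SE of SHAM 3 h over 2 h in shoots (circles) and roots (squares) for the 24 genes whose step differed between the organs. Shoot steps lie beyond 1 in either direction, while root steps lie between -0.76 and 1.03, and AT2G29670 was not tested in roots alone.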

How the data were processed

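MARS-seq libraries of shoots and roots were counted per gene. Per the submitters' processing notes, bcl2fastq, cutadapt, STAR 2.4.2a, HTSeq and DESeq2 were used. The genome build, the collapsing of molecular identifiers and the strand setting are not given in the sources used here, so no coordinates or sequences are printed. The deposited counts are whole numbers for 16183 genes, and no gene has a highest count under 6. The authors also deposited log2 fold changes, coded as 2 h over 3 h and so opposite in sign to those here, and adjusted p-values with a yes or no call for each gene. Locus names were matched to RefSeq, which held 16082 of them.

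The edgeR 4.0.16 quasi-likelihood test (R 4.3.3, limma 3.58.1, data.table version 1.17.8) was applied to these counts. Low genes were removed by filterByExpr with min.count at 10 and min.total.count at 15, and scaling was by TMM, with the 12 shoot libraries sharing 1 estimate of the spread. Benjamini-Hochberg adjusted p under 0.05 over all genes tested was called. The value after ± is the standard error of a log2 change (its size over the square root of F) or the SD of a level. The root comparison used the 12 root libraries and the difference between organs all 24. Summaries used python 3.11.15, pandas 2.3.3, scipy 1.17.1 and matplotlib 3.10.9. The pipeline was tested on simulated data. Library totals ran from 862731 to 3622300 counts. Wilson and counting intervals (95%) cover counting error only.

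Same-numbered shoot libraries at 3 h and 2 h deviated together from their group means (correlations across genes of 0.229, 0.37 and 0.527). A pair with different numbers, 3 h replicate 2 with 2 h replicate 1, reached 0.381, and the other 5 ran from -0.496 to 0.143. The replicate number was taken to pair them because each same-numbered pair was over 0.1, although no label says what it marks and replicate 3 is the shallowest library of both groups. The main p-values nevertheless come from the fit without this block, and the blocked p is given where it ends a call.

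The alternatives tried were no filter, library size without TMM, median-ratio size factors (also from nuclear genes), DESeq2 1.42.0, the replicate block, nuclear genes alone, the 6 libraries alone, a 2-fold threshold and each library left out. A further 2, named in the results, were chosen after seeing the data. The comparison and the 38 gene lists (784 loci, of which 513 were tested) were chosen with earlier results of these data known. Genes named are the 12 highest and 12 lowest called nuclear genes whose mean reached 10 CPM and whose groups did not overlap, up to 4 called members of each list with any member called against its majority, AOX1A, LOX1 and LOX2, the 5 most abundant organelle genes and the 5 highest and 5 lowest differences between organs. AT3G06355, further called members of lists, BT1, BT2 and further genes called between organs, 33 in all, were named after their values were seen, as were the non-called list members DRM2, LTP1 and NIR1.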

Additional observations from a re-analysis of the deposited data

Results flagged for a closer look

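The step from SHAM 2 h to 3 h differed between shoots and roots for 24 genes by the test of the difference itself (edgeR, adjusted p under 0.05, all 24 libraries in the fit). The shoot 2 h libraries, which stood apart in organelle-encoded and ribosomal RNA, enter this difference, and the part of that contrast in it was not tested. In roots alone 0 genes were called, which by itself does not show a difference between the organs. Of the genes named, the step was more negative in shoots by -5.28 for AT2G29670, -3.49 for AT1G21525, -3.0 for BBX28, -2.74 for PI4K GAMMA 4 and -2.71 for ELIP2, all on the log2 scale. It was more positive in shoots by 3.36 for JMJD5, 3.29 for CYP83B1, 2.87 for ATMG00660, 2.73 for AT2G24580 and 2.55 for AT1G07400. ELIP2 was called in 15 of 18 alternative fits and AT1G21525 in 13, whereas AT1G07400 was called in 3 of 18 and ATMG00660 in 3 of 17. All 24 had an unadjusted p under 0.05 in every fit that left out 1 library. They were chosen for small p-values in these same libraries, so this was close to fixed in advance and is no support. Those fits gave 888 to 1212 genes at that unadjusted level. At an adjusted p under 0.05 they called 0 without shoot 3 h replicate 1, shoot 3 h replicate 2 or shoot 2 h replicate 1.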

How the results depend on the processing

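Of 741 nuclear genes called, 492 were still called with the replicate block (496 called in all), 716 with median-ratio size factors, 604 with library size alone, 533 with no filter on low counts and 715 with DESeq2 (932 in all), and 0 of those tested changed direction. With no filter, 249 of 635 called were higher, a smaller share than the 374 of 741. Leaving out 1 library gave 281 to 618 nuclear and 9 to 27 organelle-encoded genes called, against 25 of the latter with all libraries and 20 with the replicate block. Without both replicate 3 libraries the counts were 319 and 15, and without SHAM 1 h replicate 3 in the fit 883 and 39. The difference in organelle share ranged from 0.955 to 1.02 percentage points when 1 library was left out. For the difference between organs, 24 genes were called, against 8 with no filter, 109 with DESeq2, 14 with the replicate block and 0 to 25 without 1 library. In roots every alternative run called 0 genes, with 72 to 813 at an unadjusted p under 0.05, the most without 2 h replicate 3. Root replicate numbers did not pair the libraries (correlations of -0.316 to 0.48), and the block gave 0 calls. Same-numbered shoot and root libraries were not paired either, so the block is a weak check of the difference between organs. Beyond the shoot calls named as lost in the text, the replicate block ended no shoot call among the genes printed. Of 149 named genes called, 72 were called in every alternative and 120 with the block. ATCG00260, not called, had a log2 change of -5.54 without 3 h replicate 3 and 11.16 without 2 h replicate 3, against 1.73 with all libraries. The cause of these changes was not tested, beyond the smaller number of libraries or the larger number of genes tested. Depth limits low genes such as PCB2 and ORG1.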

Other observations

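Smaller lists held few called genes between 3 h and 2 h in shoots. Over all nuclear genes tested 8.71% were called, and shares near that are no result about a list, so the genes are given singly. IAA17 (AT1G04250), an auxin response repressor, stood at 62.2, 55.9 and 89 CPM at 3 h, against 288, 234 and 368 CPM at 2 h (-2.19 ± 0.34, adjusted p = 0.00193), the only one called of 6 auxin genes tested. XTH15 (AT4G14130), a wall-loosening xyloglucan enzyme, stood at 2.18, 2.8 and 0.741 CPM at 3 h, against 13, 15.1 and 11.6 CPM at 2 h (-2.72 ± 0.45, adjusted p = 0.00272), and with XTH18 (-2.05 ± 0.58, adjusted p = 0.0433) 2 of 19 expansin and XTH genes were lower. Flavonoid synthesis had 3 of 14 lower and 0 higher (median log2 change -0.35), led by CHS (AT5G13930), chalcone synthase, at 34.2, 37.8 and 42.2 CPM at 3 h, against 130.4, 119 and 69 CPM at 2 h (-1.53 ± 0.26, adjusted p = 0.00322). F3H (-1.35 ± 0.35, adjusted p = 0.0298) and CHIL (-1.12 ± 0.28, adjusted p = 0.0241) were the others. CAT2 (AT4G35090), a leaf catalase that removes hydrogen peroxide from photorespiration, stood at 14.2, 18.18 and 11.1 CPM at 3 h, against 38.4, 84.8 and 53.8 CPM at 2 h (-2.06 ± 0.32, adjusted p = 0.00217), and 1 of 12 photorespiration genes was called. The superoxide dismutases CSD2, of the chloroplast (1.05 ± 0.26, adjusted p = 0.0259), and CSD1, of the cytosol (0.99 ± 0.25, adjusted p = 0.0281), were higher, 2 of 13 antioxidant genes. XTH18 (without 3 h replicate 1 or 2 or 2 h replicate 1 or 3, highest adjusted p = 0.183) and F3H (without 3 h replicate 1, 2 or 3 or 2 h replicate 1 or 2, highest adjusted p = 0.13) lost their calls when 1 library was left out. CHIL (without 3 h replicate 1, 2 or 3 or 2 h replicate 1 or 2, highest adjusted p = 0.0986) and CSD2 (without 3 h replicate 1 or 2 or 2 h replicate 1, 2 or 3, highest adjusted p = 0.149) did so too. CSD1 (without 3 h replicate 1 or 3 or 2 h replicate 1 or 2, highest adjusted p = 0.0968) did so too. XTH18 (adjusted p = 0.08), CSD2 (adjusted p = 0.0511) and CSD1 (adjusted p = 0.0511) lost their calls with the replicate block.

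Of 26 ribosomal protein genes, 3 were lower and 0 higher, RPL3A (-1.60 ± 0.38, adjusted p = 0.0195), RPL10A (-0.89 ± 0.24, adjusted p = 0.0372) and RPS6A (-1.24 ± 0.35, adjusted p = 0.0437), with a median of -0.44. In the autophagy and senescence list RD26 (-1.50 ± 0.32, adjusted p = 0.0114) and NAC055 (-1.03 ± 0.26, adjusted p = 0.025) were lower and NYC1, a chlorophyll b reductase, was higher (1.05 ± 0.26, adjusted p = 0.0238). LSU1 was the only one called of 8 sulfur genes, lower (-1.24 ± 0.35, adjusted p = 0.0423). Of 5 cytokinin response and 2 cell cycle genes tested, edgeR called 0. RPL3A (without 3 h replicate 1 or 3 or 2 h replicate 2 or 3, highest adjusted p = 0.102) and RPL10A (without 3 h replicate 1, 2 or 3 or 2 h replicate 1 or 2, highest adjusted p = 0.167) lost their calls when 1 library was left out. RPS6A (without any 1 of the 6, highest adjusted p = 0.177) and RD26 (without 3 h replicate 1 or 2, highest adjusted p = 0.0649) did so too. NAC055 (without 3 h replicate 1, 2 or 3 or 2 h replicate 1 or 3, highest adjusted p = 0.101) and NYC1 (without 3 h replicate 1 or 2 or 2 h replicate 1 or 2, highest adjusted p = 0.119) did so too. LSU1 (without 3 h replicate 1, 2 or 3 or 2 h replicate 1 or 3, highest adjusted p = 0.17) did so too. RPL10A (adjusted p = 0.0539), RPS6A (adjusted p = 0.0672), NAC055 (adjusted p = 0.0574) and LSU1 (adjusted p = 0.0717) lost their calls with the replicate block.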
